A study of Homo sapiens with 6 samples.

Results

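The proteasome genes described here are the rows whose platform gene symbol is PSMA, PSMB, PSMC, PSMD, PSME, PSMF or PSMG followed by a number. The rule found 44 genes among the 17687 gene symbols of the table, each on 1 probe set, so no choice between rows was needed. They hold all 14 subunits of the catalytic core and 14 of the 17 cap subunits listed by symbol. PSMC5, PSMD7, PSMD13 and PSME2 were not analysed here. Expression was measured on 6 single-colour arrays of K562, an established human erythroleukaemia cell line, with 3 replicates carrying a control vector and 3 carrying a vector for the microRNA miR-543. The labels give bone marrow as the tissue and name no other treatment, time point or allele. The kind of vector, its promoter, any selection of clones and whether replicates were separate cultures are not given in the sources used here, so p-values speak to the spread among these arrays alone, and that spread may be a technical one.

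The proteasome is a barrel-shaped protease that destroys proteins tagged with ubiquitin. Its core is a stack of rings, with outer rings of PSMA subunits that gate the entrance and inner rings of PSMB subunits that hold the cutting sites of PSMB5, PSMB6 and PSMB7. The cap (regulatory particle) recognises ubiquitin, removes it and threads the unfolded protein into the core with a ring of PSMC ATPases, while PSMD subunits form the rest of the base and the lid. In cells exposed to interferon PSMB8, PSMB9 and PSMB10 replace PSMB5, PSMB6 and PSMB7 in newly built cores, and PSME1 and PSME2 form an alternative activator. Blood-forming cells often carry some of these immune subunits without added interferon. NFE2L1, a transcription factor of the CNC family, raises proteasome genes together when proteasome activity is short, and NFE2L2 can do so under oxidative stress. A microRNA pairs through its seed, bases 2 to 8, with mRNAs and lowers their stability or translation.

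The microRNA named in the vector label is shown with its seed in capitals, from RefSeq (GRCh38.p14, chr14:101032033-101032054, plus strand). Its level in these cells was not examined here. No transcript sequence was used here, so sites for it in proteasome mRNAs were not searched.
hsa-miR-543: aAACAUUCgcggugcacuucuu

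The 250 bases before the start site are shown for the 3 immune subunits of the inner ring and for PSME3, since PSMB8, PSMB9 and PSME3 had the smallest p-values among the members. They come from RefSeq (GRCh38.p14), run 5′ to 3′ on the strand of the gene, and show for PSMB8 the outermost of its start sites. Capitals mark matches on either strand to TGACNNNGC, the core of the element bound by CNC factors, to GAAA followed after any 2 bases by GAAA, the core of the interferon response element, or to TTCNNNGAA, the palindrome bound by STAT factors.
PSMB8, chr6:32844680-32844929, minus strand: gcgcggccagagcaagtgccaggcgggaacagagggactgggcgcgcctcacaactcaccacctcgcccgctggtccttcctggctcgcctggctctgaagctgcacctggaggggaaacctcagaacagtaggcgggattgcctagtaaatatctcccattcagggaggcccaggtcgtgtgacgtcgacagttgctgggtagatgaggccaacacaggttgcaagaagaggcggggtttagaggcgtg
PSMB9, chr6:32853942-32854191, plus strand: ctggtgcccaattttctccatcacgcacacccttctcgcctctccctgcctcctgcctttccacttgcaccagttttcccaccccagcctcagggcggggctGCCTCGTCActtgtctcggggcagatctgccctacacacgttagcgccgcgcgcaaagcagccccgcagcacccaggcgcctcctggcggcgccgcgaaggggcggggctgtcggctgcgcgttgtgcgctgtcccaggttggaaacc
PSMB10, chr16:67936851-67937100, minus strand: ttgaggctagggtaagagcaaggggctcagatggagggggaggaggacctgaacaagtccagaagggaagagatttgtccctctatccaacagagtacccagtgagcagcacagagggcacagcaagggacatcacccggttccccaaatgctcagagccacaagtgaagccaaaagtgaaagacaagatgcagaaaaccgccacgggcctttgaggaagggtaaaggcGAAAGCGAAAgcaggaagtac
PSME3, chr17:42833147-42833396, plus strand: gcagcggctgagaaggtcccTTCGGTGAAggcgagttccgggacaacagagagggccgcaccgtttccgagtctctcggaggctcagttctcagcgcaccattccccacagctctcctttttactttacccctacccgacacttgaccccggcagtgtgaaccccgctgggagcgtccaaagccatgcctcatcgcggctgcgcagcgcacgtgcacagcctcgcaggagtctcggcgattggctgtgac

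PSMB8 held none of these letters in the window shown and a STAT palindrome before its inner start. PSMB9 held the CNC letters on the opposite strand, PSMB10 the interferon element and PSME3 the STAT palindrome. The inner PSMB8 match, with 10 bases on each side, is printed in the gene's direction.
PSMB8, chr6:32844094-32844122, minus strand: aactgtccttTTCTCGGAAaaggcagggg

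Promoter windows were matched for 38 of the 44 members, and a gene with several starts was counted once if any window held a match. TGACNNNGC stood before 11 of the 38 members (28.9%) and 14.7% of 15842 protein-coding genes. Of these 11, 2 were among 10 core genes and 2 among 13 cap genes with a window. The interferon element stood before 4 members (10.5%) and 3.60% of all genes, and TTCNNNGAA before 7 members (18.4%) and 7.89% of all genes. CCAAT, a common promoter element, stood before 17 members (44.7%) and 40.2% of all genes. Both strands were searched, and each motif was counted on its own, also where its letters could overlap another. The members with TGACNNNGC had log2 changes on both sides of 0, from -0.34 for PSMD12 to 0.61 for PSMB9. Their 5 matches with the largest changes in size (for PSMD9 the nearer of its matches to the start) are shown on the strand that carries the letters, with the match in capitals. A match is a description of the letters and not a bound site.
PSMB9, chr6:32854034-32854062, minus strand: ccgagacaagTGACGAGGCagccccgccc
PSMD12, chr17:67366724-67366752, minus strand: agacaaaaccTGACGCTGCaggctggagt
PSMD9, chr12:121888678-121888706, plus strand: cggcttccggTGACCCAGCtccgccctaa
PSMB3, chr17:38752627-38752655, plus strand: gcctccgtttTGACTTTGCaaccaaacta
PSMD3, chr17:39980760-39980788, plus strand: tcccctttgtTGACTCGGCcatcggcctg

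Values are log2 signals per probe set. Array medians lay between 5.99 and 6.01, lower quartiles between 3.98 and 4.03 and upper quartiles between 9.61 and 9.66. The 7 measured erythroid markers lay above the array medians, from 6.81 for KLF1 to 15.71 for HBE1 as control means. Their mean was 12.92 to 12.98 on the control arrays and 13.15 to 13.27 on the miR-543 arrays, and 0 of them were called. Markers of T cells lay above the array medians for 2 of 5 genes, of B cells for 2 of 4, of monocytes for 1 of 5, of epithelia for 4 of 5 and of fibroblasts for 1 of 4. The fibroblast mean was 5.42 to 5.90 on control and 5.91 to 5.96 on miR-543 arrays, while the means of the T cell, B cell, monocyte and epithelial lists overlapped between the groups. The part of these markers in the results was not tested.

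The comparison asks which proteasome mRNAs differed with the miR-543 vector, and each change is the miR-543 mean less the control mean. Of the 44 members 0 were called by limma at an adjusted p under 0.05 (Benjamini-Hochberg over all 21448 probe sets), where 0.569% of all probe sets were called. An unadjusted p under 0.05 was found for 4 members (9.09%), PSMB8, PSMB9, PSME3 and PSMD11, beside 10.6% of all probe sets, so their share was near the background. With low probe sets filtered out before the fit, PSMB8, PSMB9 and PSME3 were called, where 168 of 10724 probe sets were. The filter used the mean over all arrays, and PSMB8 lay above the array medians on the control arrays alone. Its call there is thus not independent of the change. With a trended, robust prior PSME3 alone was called, where 252 of all probe sets were. The median log2 change of the members was 0.02 (-0.018 to 0.046 with each array left out in turn) beside 0.01 for all probe sets, with 23 members above 0 (52.3%, and also 52.3% of all probe sets) and 21 below (47.7% and 47.1%). For 43 of 44 members the 95% interval of the change lay between -1 and 1 on the log2 scale. Such an interval leaves out a 2-fold change in signal. For 27 members the interval lay between -0.5 and 0.5. PSMB8 was the exception to the first range. The 43 include PSMA8 and PSMB11, whose signals were low, and there a change in mRNA may not show.

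In 11 of the 44 members (25.0%) the arrays of the groups did not overlap, beside 15.4% of all probe sets. Of these, 8 lay lower with the miR-543 vector (18.2% of members, 7.5% of all probe sets) and 3 lay higher (6.82% and 7.89%). The 8 were PSMA1, PSMB8, PSMC4, PSMD3, PSMD8, PSMD11, PSME3 and PSMG1, and the 3 were PSMB2, PSMB9 and PSMG2. Among probe sets with a mean above the median of all means, as 42 of the members were, groups stood apart for 19.8%, with 10.1% lower and 9.6% higher. In that brighter set 50.4% of changes lay above 0 and 49% below, and 12.8% had an unadjusted p under 0.05.

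**Figure D1:**
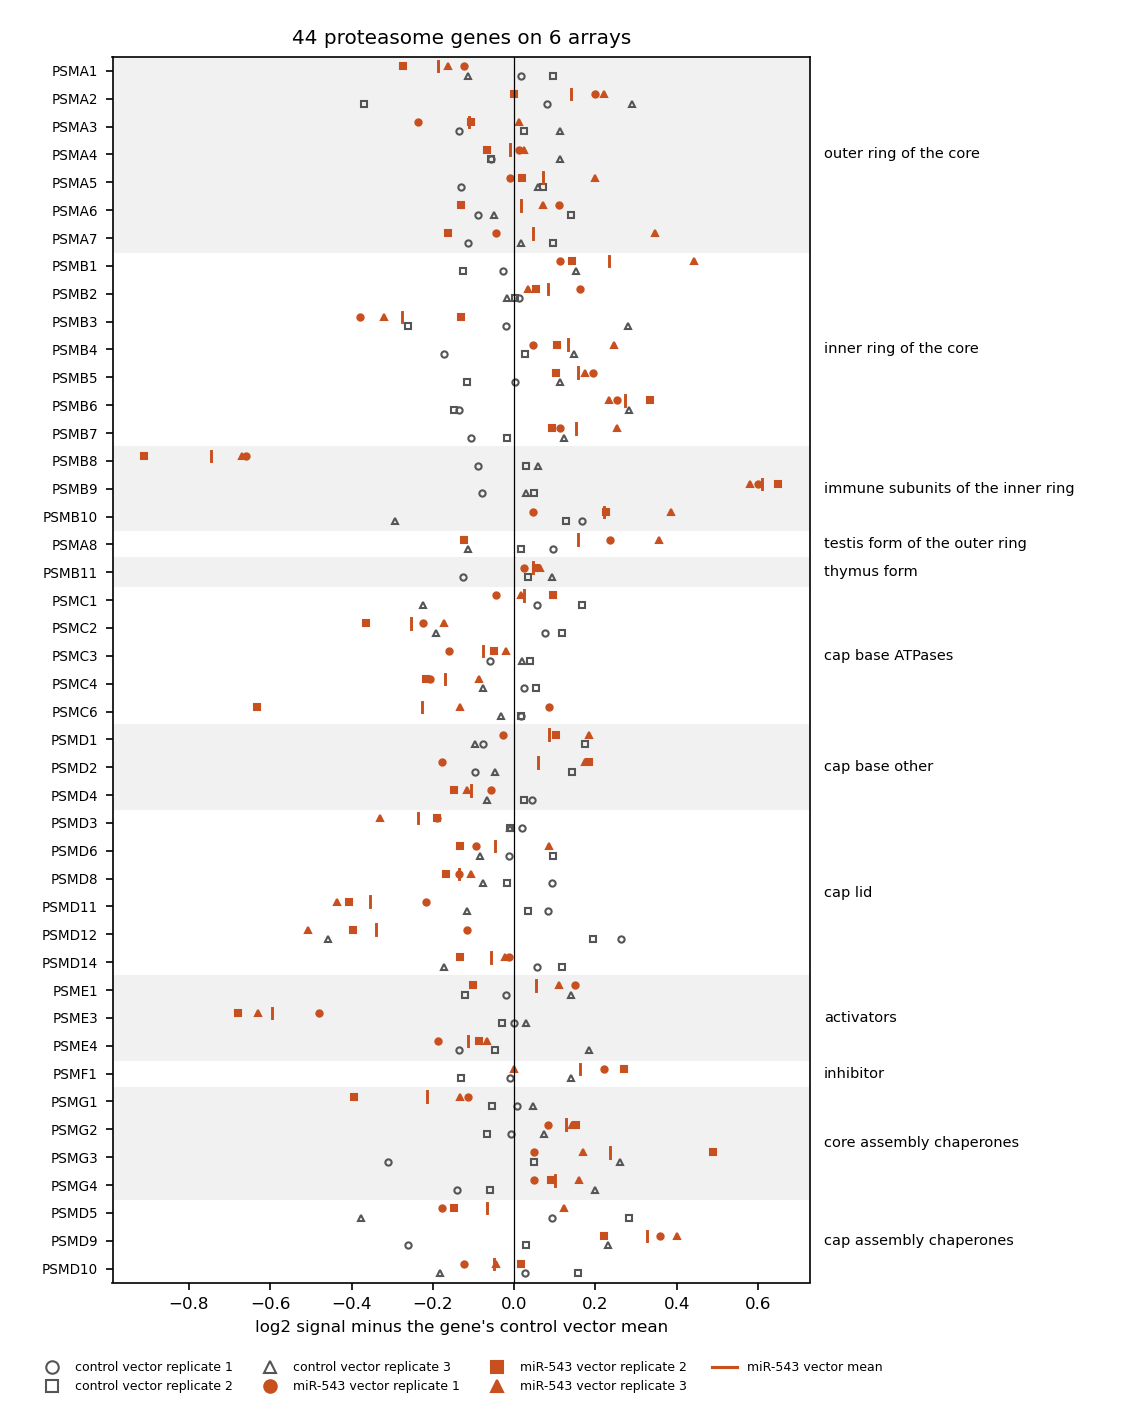
Log2 signal of the 44 proteasome genes on each of the 6 arrays, as the difference from each gene's own mean over the control vector arrays (horizontal axis), with genes in rows by class. Open grey symbols are control arrays, filled orange symbols are miR-543 arrays and orange bars their means; PSMB8 and PSME3 stand to the left at -0.75 and -0.60, PSMB9 to the right at 0.61, and the other means lie between -0.35 and 0.33.

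The immune subunits held the largest changes in both directions. PSMB8, which takes the place of the chymotrypsin-like subunit PSMB5, read 6.53, 6.65 and 6.68 on the control arrays and 5.96, 5.71 and 5.95 on the miR-543 arrays. The miR-543 arrays were all lower and the groups did not overlap. The miR-543 readings lay below the array medians of 5.99 to 6.01, and without a detection call the size of a change at such signals is uncertain. The log2 change was -0.75 (SE 0.14, 95% interval -1.06 to -0.43), 59.6% of the control level, with a limma adjusted p of 0.0543, just outside the threshold.

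PSMB9, which takes the place of the caspase-like subunit PSMB6, read 7.77, 7.90 and 7.88 on the control arrays and 8.45, 8.50 and 8.43 on the miR-543 arrays. All 3 miR-543 arrays were higher. Its log2 change was 0.61 (SE 0.13, interval 0.32 to 0.90), a ratio of 1.53, with an adjusted p of 0.0975. Taken as PSMB9 minus PSMB8 within each array and set to 0 over the control mean, the control arrays lay at 0.01, 0.02 and -0.03 and the miR-543 arrays at 1.26, 1.56 and 1.25. This contrast was singled out after the values had been seen and has no test.

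PSMB10, which takes the place of the trypsin-like subunit PSMB7, read 6.70, 6.66 and 6.24 on the control arrays and 6.58, 6.76 and 6.92 on the miR-543 arrays. The groups overlapped, with a log2 change of 0.22 (SE 0.17, interval -0.16 to 0.60, adjusted p = 0.71). PSME1, the alpha subunit of the interferon-induced activator, read 9.79, 9.69 and 9.95 with the control vector and 9.96, 9.71 and 9.92 with the miR-543 vector. Its log2 change of 0.05 (interval -0.27 to 0.38) also came with overlapping groups. Over the 4 measured immune genes the median log2 change was 0.14, with 3 members above 0 and PSMB8 below, and it was 0.081 without miR-543 replicate 3.

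The constitutive partners of the immune subunits had small positive changes. PSMB5 read 12.34, 12.22 and 12.45 and then 12.53, 12.44 and 12.51, a log2 change of 0.16 (interval -0.14 to 0.46). PSMB6 read 11.59, 11.58 and 12.01 and then 11.98, 12.06 and 11.96, a log2 change of 0.27 (interval -0.07 to 0.62). Here control replicate 3 lay among the miR-543 arrays and the other control arrays below them. PSMB7 read 13.51, 13.60 and 13.74 and then 13.73, 13.71 and 13.87, a log2 change of 0.15 (interval -0.15 to 0.46).

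The change of each immune subunit less that of its constitutive partner was -0.90 for PSMB8 and PSMB5, 0.34 for PSMB9 and PSMB6, and 0.07 for PSMB10 and PSMB7. Within arrays, PSMB8 minus PSMB5 relative to the control mean was -0.09, 0.15 and -0.05 on the control arrays and -0.85, -1.01 and -0.84 on the miR-543 arrays, which did not overlap. PSMB9 minus PSMB6 was 0.06, 0.20 and -0.25 on the control arrays and 0.35, 0.32 and 0.35 on the miR-543 arrays, again apart. For PSMB10 minus PSMB7 the arrays overlapped, at 0.27, 0.14 and -0.42 against -0.07, 0.13 and 0.13. Levels of different probe sets are not set against each other, since probes differ in how strongly they bind.

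**Figure D2:**
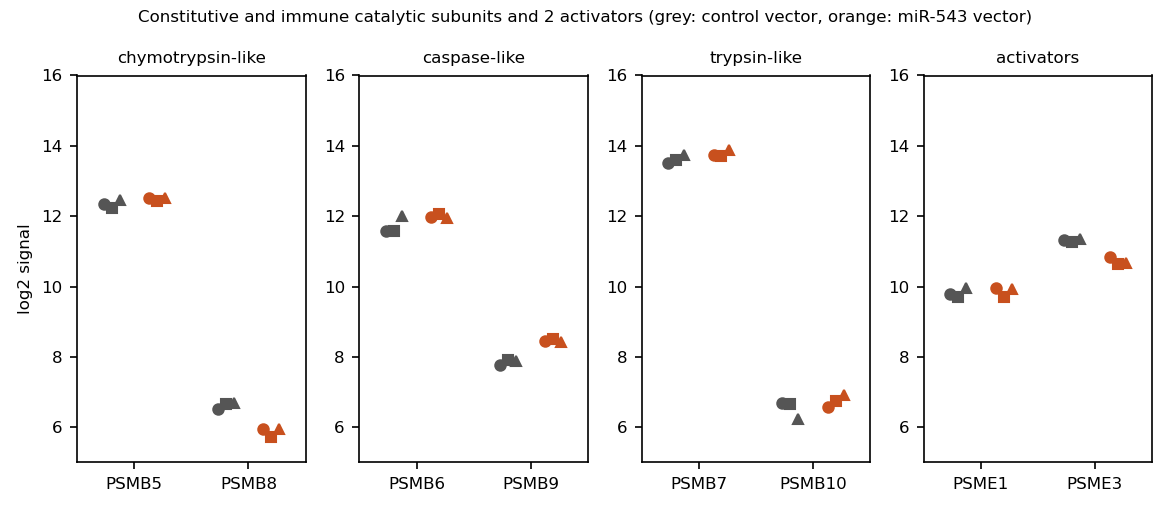
Log2 signal (vertical axis) of each constitutive catalytic subunit beside its immune counterpart, and of the activators PSME1 and PSME3, on the 3 control vector arrays (grey) and 3 miR-543 vector arrays (orange), with circle, square and triangle for replicates 1, 2 and 3. PSMB8 lies between 6.53 and 6.68 and then between 5.71 and 5.96, PSMB9 between 7.77 and 7.90 and then between 8.43 and 8.50, and PSME3 between 11.28 and 11.34 and then between 10.63 and 10.83.

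PSMB8 and PSMB9 lie close together on chromosome 6 with TAP1 between them and TAP2 on the other side of PSMB8, in the order of the RefSeq table of GRCh38.p14. TAP1 and TAP2 together form the transporter that carries proteasome-cut peptides into the endoplasmic reticulum. TAP1 read 5.91, 5.81 and 5.84 on the control arrays and 5.95, 5.84 and 5.75 on the miR-543 arrays, a log2 change of -0.01 (interval -0.31 to 0.29). All TAP1 readings lay below the array medians, and at such signals a change may not show. TAP2 read 7.92, 8.0 and 8.35 and then 7.61, 7.93 and 7.84, a log2 change of -0.30 (SE 0.16, interval -0.66 to 0.07, adjusted p = 0.569), with groups that overlapped. Along this stretch the changes were thus -0.30 for TAP2, -0.75 for PSMB8, -0.01 for TAP1 and 0.61 for PSMB9. PSMB8-AS1, a noncoding RNA named as antisense to PSMB8 and overlapping it in RefSeq, lay below the array lower quartiles at 3.83 ± 0.11 in control and 3.44 ± 0.15 in miR-543 arrays (mean ± SD, n = 3). Its log2 change was -0.39 (adjusted p = 0.385), and whether the probes keep the strands apart is not given in the sources used here. IRF1, an interferon regulatory factor that drives immune subunit genes, had a log2 change of -0.18 (interval -0.55 to 0.19), and the MHC class I activator NLRC5 had one of 0.06 (interval -0.44 to 0.55). Both signals were low. IRF1 means of 5.86 in control and 5.68 in miR-543 arrays lay below the array medians. NLRC5 means of 3.96 and 4.01 lay near the array lower quartiles, where a change may not show.

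Among the other activators, PSME3 stood apart from PSME4. PSME3 forms the nuclear activator PA28-gamma, which opens the core without ubiquitin. It read 11.31, 11.28 and 11.34 on the control arrays and 10.83, 10.63 and 10.68 on the miR-543 arrays, so every miR-543 array was lower and the control arrays lay close together. The log2 change was -0.60 (SE 0.13, interval -0.89 to -0.30), 66.1% of the control level, with an adjusted p of 0.116. PSME4, the large activator known from sperm chromatin and DNA repair, read 12.28, 12.37 and 12.60 and then 12.23, 12.33 and 12.35, a log2 change of -0.11 (interval -0.43 to 0.20) with overlapping groups. PSMF1, an inhibitor of the core, read 12.35, 12.23 and 12.50 and then 12.58, 12.63 and 12.36, a log2 change of 0.16 (interval -0.16 to 0.49).

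The constitutive core had 10 of 14 subunits above 0 (71.4%, beside 52.3% of all probe sets), 0 called and a median log2 change of 0.08. Without control replicate 1 these were 8 of 14 and 0.026, without miR-543 replicate 3 they were 8 of 14 and 0.041, and without miR-543 replicate 2 they were 11 of 14 and 0.12. Control means ran from 11.73 to 14.87, all above the upper quartiles of the arrays. In the outer ring 4 of 7 subunits lay above 0, between -0.19 for PSMA1 and 0.14 for PSMA2. PSMA1 read 12.35, 12.43 and 12.22 on the control arrays and 12.21, 12.06 and 12.17 on the miR-543 arrays, which lay just below without overlap. PSMA2 read 12.19, 11.74 and 12.40 and then 12.31, 12.11 and 12.33, so its second control array was low and the groups overlapped. The remaining subunits PSMA3, PSMA4, PSMA5, PSMA6 and PSMA7 had changes between -0.11 and 0.07.

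In the inner ring 6 of 7 subunits lay above 0. PSMB3, a noncatalytic subunit, was the exception, with readings of 13.92, 13.68 and 14.22 and then 13.56, 13.81 and 13.62. Its log2 change was -0.28 (SE 0.17, interval -0.65 to 0.10) and the groups overlapped. The noncatalytic subunits PSMB1, PSMB2 and PSMB4 had log2 changes of 0.23, 0.08 and 0.13. PSMB2 read 14.88, 14.87 and 14.85 and then 15.03, 14.92 and 14.90, with an interval of -0.21 to 0.37 for its change. It was higher on every miR-543 array, though by little between the nearest arrays at 14.88 and 14.90.

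The cap had 11 of 14 measured subunits below 0 (78.6%, beside 47.1% of all probe sets), 0 called and a median log2 change of -0.12. Of the 14, 4 (28.6%) had all miR-543 arrays below all control arrays, PSMC4, PSMD3, PSMD8 and PSMD11. The share was 7.5% of all probe sets and 10.1% of those with a mean above the median, as all measured cap subunits had. In the lid all 6 measured subunits lay below 0, between -0.35 and -0.05. PSMD11, a scaffold subunit of the lid, read 13.59, 13.54 and 13.39 on the control arrays and 13.29, 13.10 and 13.07 on the miR-543 arrays. The groups did not overlap, and the log2 change was -0.35 (SE 0.14, interval -0.66 to -0.04, adjusted p = 0.414).

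PSMD12, another scaffold subunit of the lid, read 13.05, 12.98 and 12.33 and then 12.67, 12.39 and 12.28. Control replicate 3 lay among the miR-543 arrays, and the log2 change of -0.34 had the widest error of the members (SE 0.21). PSMD3 read 13.25, 13.22 and 13.22 and then 13.04, 13.04 and 12.90, a log2 change of -0.24 (interval -0.53 to 0.06) with groups that did not overlap. PSMD14, the enzyme that cuts ubiquitin from the substrate, had a log2 change of -0.06, and PSMD6 and PSMD8 had changes of -0.05 and -0.14.

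In the ATPase ring 4 of 5 measured subunits lay below 0. PSMC2 read 14.81, 14.85 and 14.54 and then 14.51, 14.37 and 14.56, a log2 change of -0.25 (interval -0.58 to 0.07) with control replicate 3 again inside the range of the miR-543 arrays. PSMC1 read 13.77, 13.88 and 13.49 and then 13.67, 13.81 and 13.73, a log2 change of 0.02. PSMC3, PSMC4 and PSMC6 had changes of -0.08, -0.17 and -0.23, and in PSMC6 a single miR-543 array, replicate 2 at 10.15, lay away from the other 5 arrays at 10.65 to 10.87. Of the rest of the base, PSMD1 read 12.10, 12.35 and 12.08 and then 12.15, 12.28 and 12.36, a log2 change of 0.09. PSMD4, a ubiquitin receptor, read 14.33, 14.31 and 14.22 and then 14.23, 14.14 and 14.17, a log2 change of -0.11. PSMD2, which docks ubiquitin shuttles, had a change of 0.06.

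Core and cap were set side by side within each array, as the mean over subunits of the log2 signal relative to each gene's control mean. The 14 core subunits averaged -0.06, -0.05 and 0.11 on the control arrays and 0.03, -0.001 and 0.13 on the miR-543 arrays. The 14 cap subunits averaged 0.03, 0.08 and -0.12 on the control arrays and -0.11, -0.18 and -0.11 on the miR-543 arrays. Core minus cap was -0.10, -0.13 and 0.22 on the control arrays and 0.14, 0.17 and 0.23 on the miR-543 arrays. The groups therefore overlapped, since control replicate 3 lay beside the miR-543 arrays and the other control arrays lay below them.

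The mean of core minus cap was 0.18 ± 0.05 on the miR-543 arrays (SD, n = 3), set to 0 on the control arrays, whose SD of 0.20 was larger than the difference. As the median change of core less that of cap the value was 0.20, and it was 0.25 without control replicate 3 and 0.12 without control replicate 1. The inner ring and the lid showed the same placement of control replicate 3, with inner ring means of -0.06, -0.09 and 0.15 and lid means of 0.08, 0.07 and -0.15 on the control arrays. On the miR-543 arrays they were 0.07, 0.10 and 0.15 for the inner ring and -0.13, -0.24 and -0.22 for the lid. PSMB6, PSMC2 and PSMD12, all named above, followed this placement, but not every gene did. In PSMB3 control replicate 3, at 14.22, lay farthest from the miR-543 arrays. In PSMC1 and PSMD11 it lay outside their range, at 13.49 and 13.39. The score is a description of these 28 genes and has no test.

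**Figure D3:**
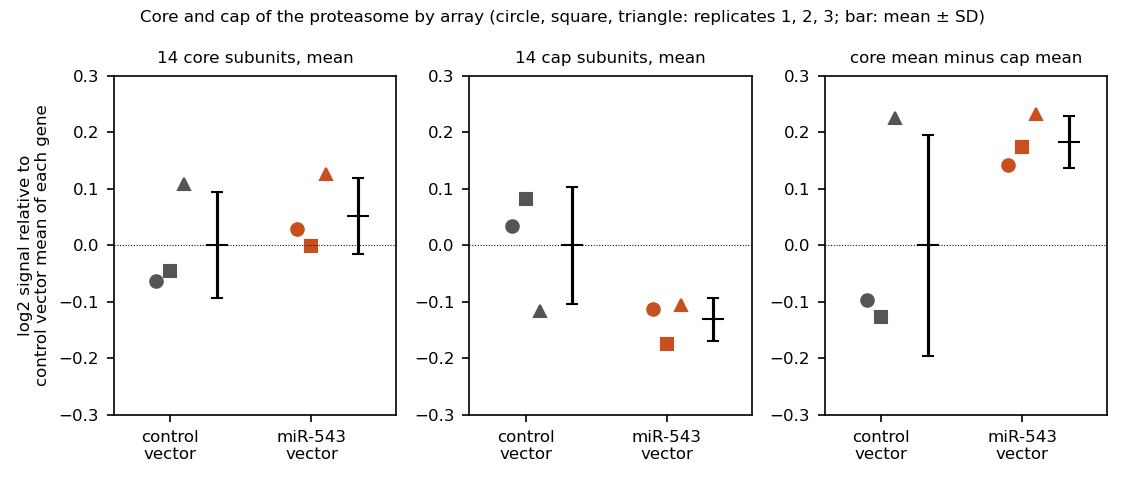
Mean log2 signal of 14 core subunits, of 14 cap subunits and their difference (vertical axes, relative to each gene's control vector mean), on 3 control vector arrays (grey) and 3 miR-543 vector arrays (orange), with black bars for mean ± SD. For core minus cap control replicates 1 and 2 lie at -0.10 and -0.13, control replicate 3 lies at 0.22, and miR-543 replicates span 0.14 to 0.23, a range that holds control replicate 3.

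Chaperones that build the proteasome gave small changes in either direction. The PSMG proteins, which assemble the outer ring as pairs, had 3 of 4 members above 0. PSMG1 read 13.38, 13.32 and 13.42 and then 13.26, 12.98 and 13.24, a log2 change of -0.21 (interval -0.53 to 0.10), lower on every miR-543 array. Its partner PSMG2 read 13.65, 13.59 and 13.73 and then 13.74, 13.81 and 13.80, a log2 change of 0.13 (interval -0.16 to 0.42), higher on every miR-543 array, though by little between the nearest arrays. PSMG3 read 9.78, 10.14 and 10.35 and then 10.14, 10.58 and 10.26, a log2 change of 0.24 (interval -0.17 to 0.65). Its partner PSMG4 read 12.23, 12.31 and 12.57 and then 12.42, 12.46 and 12.53, a log2 change of 0.10, and in both genes the groups overlapped.

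Of the chaperones of the ATPase ring, PSMD9 read 8.94, 9.23 and 9.43 on the control arrays and 9.56, 9.42 and 9.60 on the miR-543 arrays. It had the largest positive change after PSMB9, at 0.33 (SE 0.16, interval -0.03 to 0.68, adjusted p = 0.518), with groups that overlapped at 9.42 and 9.43. PSMD5 read 12.47, 12.66 and 12.00 and then 12.20, 12.23 and 12.50, a log2 change of -0.07. PSMD10, also known as gankyrin, read 11.49, 11.62 and 11.28 and then 11.34, 11.48 and 11.42, a log2 change of -0.05. PAAF1, a further chaperone of this ring outside the PSM symbols, read 9.01, 9.29 and 8.85 and then 9.25, 9.33 and 9.38, a log2 change of 0.27 (interval -0.07 to 0.61). POMP, which completes the assembly of the inner ring, had a log2 change of 0.12 (interval -0.29 to 0.53).

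The tissue forms gave low signals. PSMA8, the outer ring subunit of testis, read 3.54, 3.46 and 3.33 and then 3.68, 3.32 and 3.80, below the lower quartiles of the arrays. PSMB11, the catalytic subunit of the thymus, read 4.22, 4.38 and 4.44 and then 4.37, 4.40 and 4.41, below the array medians. Their log2 changes of 0.16 and 0.05 lay within the spread of the arrays. No detection calls were used here, and whether such genes are expressed cannot be read from these signals.

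A list of 35 genes that work with the proteasome, of which 28 were measured, gave 0 called in either direction (0.131% of all probe sets were called higher and 0.438% lower). The median log2 change was 0.02, 15 of the 28 genes had a positive and 13 a negative change, and 1 of 28 had an unadjusted p under 0.05, beside 10.6% of all probe sets. The groups did not overlap in 5 of the 28, 3 higher (UFD1, USP14 and NPLOC4) and 2 lower (NFE2L2 and UCHL5) with the miR-543 vector, beside 15.4% of all probe sets. The gene with that p was NFE2L2, which read 12.44, 11.96 and 11.79 on the control arrays and 11.59, 11.50 and 11.57 on the miR-543 arrays. Its miR-543 arrays were all lower, while its first control array stood above the other control arrays, and the log2 change was -0.51 (SE 0.18, interval -0.90 to -0.12, adjusted p = 0.35). Without control replicate 1 it was -0.32 (SE 0.16, adjusted p = 0.725), and over all alternatives the adjusted p ranged from 0.131 to 0.725. NFE2L1 read 12.62, 12.59 and 12.56 and then 12.67, 12.81 and 12.60, a log2 change of 0.10 (interval -0.19 to 0.40) with overlapping groups. NGLY1, the glycanase that NFE2L1 needs for its activation, had a log2 change of -0.19 (interval -0.55 to 0.16).

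The cap-bound deubiquitinases differed in sign. UCHL5 read 15.26, 15.35 and 15.23 and then 14.96, 15.12 and 15.00, lower on every miR-543 array, with a log2 change of -0.25 (interval -0.55 to 0.04). USP14 read 12.55, 12.49 and 12.43 and then 12.71, 12.67 and 12.68, higher on every miR-543 array, with a log2 change of 0.20 (interval -0.09 to 0.49). NPLOC4, a cofactor of the segregase VCP, read 10.70, 10.73 and 10.69 and then 10.94, 10.89 and 11.03, a log2 change of 0.25 (interval -0.04 to 0.54). The adjusted p was 0.551 for UCHL5, 0.655 for USP14 and 0.555 for NPLOC4. VCP itself, the ubiquitin gene UBB and the ubiquitin-activating enzyme UBA1 had log2 changes of -0.11, 0.06 and 0.02.

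**Figure D4:**
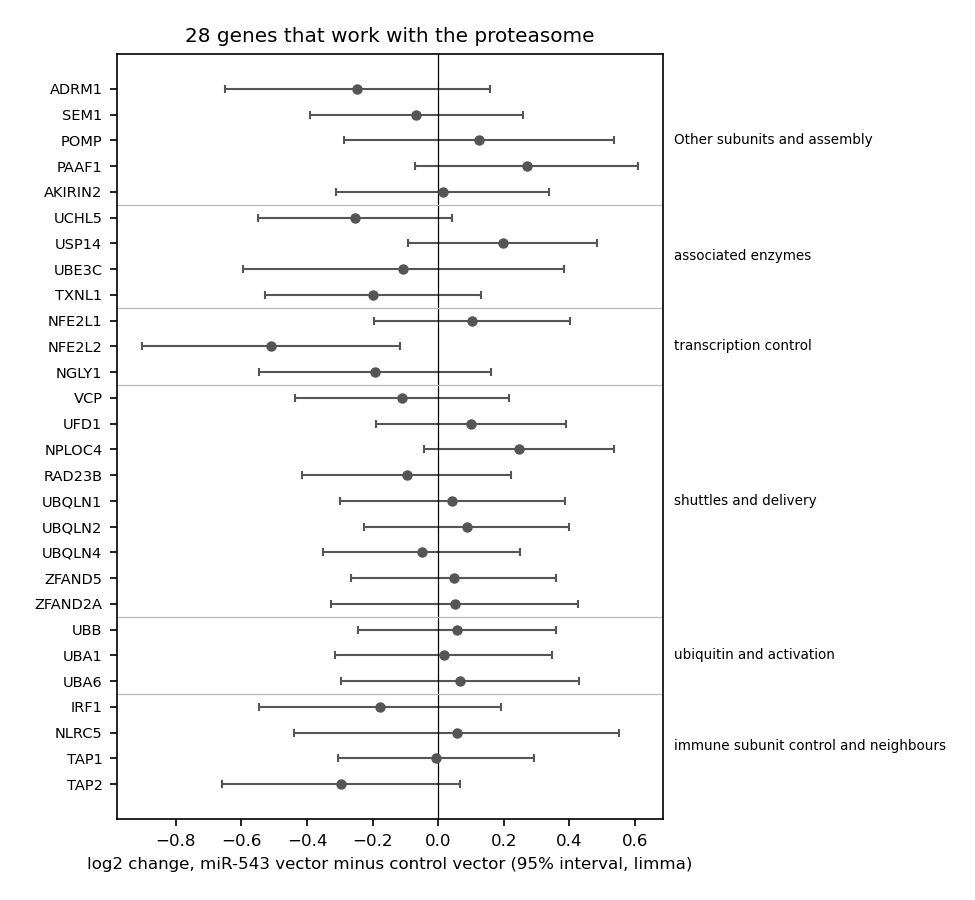
Log2 change (horizontal axis, miR-543 vector minus control vector, with limma 95% intervals) of the 28 measured genes that work with the proteasome, in rows by role. NFE2L2 at -0.51 (-0.32 without control replicate 1) is the only plotted gene whose interval leaves out 0, and the other changes lie between -0.30 and 0.27.

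The members are spread over 17 chromosomes, with 7 on chromosome 14 and 6 on chromosome 17. PSMD3, PSMD11, PSMD12, PSME3 and PSMB3 on chromosome 17 had negative changes and PSMB6 a positive one. On chromosome 14 the 7 members had changes between -0.23 for PSMC6 and 0.16 for PSMB5. Between replicates of a group the SD of members ranged from 0.015 to 0.40 with a median of 0.11, and their moderated SE from 0.13 to 0.21 beside a median of 0.16 for all probe sets.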

How the data were processed

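The authors deposited 1 log2 signal for each probe set and array, to 2 decimals. Transcriptome Analysis Console 4.0 and RMA are named in the submitters' processing notes. The RMA variant, the annotation release and the genome build of the probe sets are not given in the sources used here. The table held 6 arrays and 0 columns of other samples. Gene symbols came from the platform annotation, which gave 1 symbol for 17709 of 21448 probe sets and several for 0, and the rest are unnamed here.

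The test was limma (version 3.58.1, R 4.3.3, lmFit and eBayes without trend) on all 21448 probe sets, two-sided, with Benjamini-Hochberg adjustment and a call at an adjusted p under 0.05. SE is the moderated standard error and intervals are 95% intervals. The limma fit was tested on simulated data with independent normal noise.

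Members with values on every array were the 8 of smallest p, the immune, catalytic and tissue subunits, activators, inhibitor and chaperones, and the largest rise and fall of each other class. From the list of 35 genes the 6 of smallest p were named, and other genes of it were added after their values were seen. PSMB2, PSMC6 and PSMD12 by array, and PSMB8-AS1, were likewise added after their values were seen. The members and lists were chosen with earlier results of these data known. Alternatives were other scalings, priors and filters, a replicate block and each array left out. Averaging several rows of a symbol was not needed. The number of arrays limits the precision.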

Additional observations from a re-analysis of the deposited data

How the results depend on the processing

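No member and no gene of the wider list was called in the fits with quantile normalization, with equal array medians, with the replicate block or without any of the 6 arrays. With the trend and robust settings 1 member was called, PSME3 (adjusted p = 0.0217). With low probe sets filtered out, so that 10724 were tested, 3 were called, PSMB8, PSMB9 and PSME3 (adjusted p = 0.0186, 0.0299 and 0.0365). This fit called 168 of the 10724 probe sets. PSMB8 lay above the array medians on the control arrays alone, so its passing of the filter was not independent of its change. Over all 11 alternatives the limma adjusted p ranged from 0.0186 to 0.195 for PSMB8, from 0.0299 to 0.353 for PSMB9 and from 0.0217 to 0.351 for PSME3, and their log2 changes from -0.79 to -0.67, 0.57 to 0.64 and -0.66 to -0.56. Leaving out each array moved the median of the members between -0.018 and 0.046, that of the immune genes between 0.081 and 0.17, and that of immune less constitutive catalytic subunits between -0.14 and 0.20. The second became smallest without miR-543 replicate 3, and the third was negative without control replicate 3. The cause was not tested. Over these 6 fits the core median lay between 0.026 and 0.12, with 8 to 11 of 14 subunits above 0, the cap median between -0.16 and -0.088, with 9 to 13 of 14 below 0, and core less cap between 0.12 and 0.25. Of 34 genes named with values on every array by rule, 6 changed sign under at least 1 alternative without a call, all of them when an array was left out. Titles share replicate numbers, and deviations of same-numbered arrays correlated at 0.09, -0.05 and 0.02, beside -0.09 to 0.07 for arrays of different number. No strong shared effect of the numbers was seen. Whether same-numbered arrays were handled together cannot be told from these correlations. With the replicate block 0 members were called and 71 of all probe sets, against 122 without it. Over all probe sets the trend and robust settings called 252, and leaving out an array called 34 to 59. Without a detection call, the size of changes at low signal is uncertain.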
